A study of Mus musculus with 6 samples.

Results

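The EGR and AP-1 immediate early factors described here are 10 mouse genes taken by symbol: Egr1, Egr2 and Egr3, Fos, Fosb and Fosl2, Jun, Junb and Jund, and Batf3. All 10 were found among the 29370 genes of the deposited matrix and in the transcript tables of all 6 libraries, and 9 of them were among the 12068 genes with enough reads to be tested in the matrix. RNA came from CD8+ T cells of WT mice, taken from pancreas, spleen and lymph nodes and kept in complete T cell medium. The 3 palmitate libraries came from cells given 100 µM palmitate, a saturated long-chain fatty acid, and the 3 control libraries from cells labelled as controls, and the study sequenced RNA after 48 h of treatment to learn how palmitate affects CD8+ T cell function. The sources used here do not give the control vehicle, the strain, sex or age of the mice, or whether the cells were stimulated in culture. The note on palmitate in the treatment protocol stands on all 6 samples, so the groups rest on the treatment label of each.

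EGR proteins are zinc-finger transcription factors that bind GC-rich sites, and AP-1 factors are dimers of leucine-zipper proteins of the FOS, JUN, BATF and ATF families. In T cells, signals from the antigen receptor reach these genes through ERK, JNK and p38 kinases and through serum response factor, which binds CArG boxes. EGR2 and EGR3 are known for restraining T cell activation, AP-1 for acting with NFAT at cytokine genes, and BATF3 for the development of type 1 dendritic cells and for memory CD8+ T cells. RNA of many of these genes appears within minutes of stimulation and is short-lived.

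The matrix counts summed to between 16724588 and 24777611 in palmitate libraries and between 26042768 and 29362276 in control libraries. The labelled cell type was checked against CD8+ T cell markers: their summed level was 1822 to 2026 CPM (matrix counts relative to TMM-scaled library size) in palmitate libraries and 1322 to 1575 CPM in control libraries, and 6 of 8 were called higher with palmitate. Markers of plasma cells summed to 259 to 296 CPM in palmitate libraries and 163 to 235 CPM in control libraries, with 2 of 5 tested called higher, Jchain and Igha, and Tnfrsf17 at 0. Most of that sum was Ighm, at 231 to 250 CPM in palmitate libraries and 157 to 227 CPM in control libraries, which was not called (adjusted p = 0.0801), and neither was Sdc1, at 2.70 to 3.50 CPM in palmitate libraries and 3.78 to 5.25 CPM in control libraries. Markers of B cells summed to 16.8 to 25.4 CPM in palmitate libraries and 14.0 to 16.7 CPM in control libraries, and 1 of 6 tested was called higher. NK cell markers summed to 146 to 166 CPM in palmitate libraries and 170 to 189 CPM in control libraries, nearly all of it Eomes, which CD8+ T cells also express, and 0 of 4 were called. Of the 4 CD4+ T cell markers 2 had enough reads to be tested, and 1 was called higher, Zbtb7b (adjusted p = 0.0288). Cd4 had 47 counts and Foxp3 16 over the 6 libraries together. Of the 6 fibroblast and endothelial markers only Pecam1 was tested, and it was called higher (adjusted p = 0.0339). The others had between 0 (Dcn) and 17 counts (Pdgfra) over the 6 libraries together. The part of these shifts in the values below was not tested. In a bulk sample, fewer cells of a type and less RNA per cell cannot be told apart.

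The promoters of Egr2, Jun and Batf3 are shown because these were the members of the matrix that were called once the replicate number was taken into account. Each is 250 bases before to 50 bases after the transcript start, read 5′ to 3′ on the strand of the gene from RefSeq on build GRCm38.p6, an earlier build than the GRCm39 of the submitters' processing notes. The promoter table held 8 of the 10 members. Egr2 is at chr10:67537619-67537918 on the + strand, Jun at chr4:95052173-95052472 on the - strand and Batf3 at chr1:191098164-191098463 on the + strand. Capitals mark a CArG box in Egr2 and the letters TGACATCA, which the Jun promoter is known to offer to AP-1 dimers, in Jun.
Egr2: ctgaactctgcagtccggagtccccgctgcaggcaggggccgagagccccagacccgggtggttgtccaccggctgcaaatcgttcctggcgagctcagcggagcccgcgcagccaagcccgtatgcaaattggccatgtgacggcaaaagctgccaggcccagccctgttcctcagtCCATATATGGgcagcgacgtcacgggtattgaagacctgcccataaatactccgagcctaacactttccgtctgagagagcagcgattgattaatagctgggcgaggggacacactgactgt
Jun: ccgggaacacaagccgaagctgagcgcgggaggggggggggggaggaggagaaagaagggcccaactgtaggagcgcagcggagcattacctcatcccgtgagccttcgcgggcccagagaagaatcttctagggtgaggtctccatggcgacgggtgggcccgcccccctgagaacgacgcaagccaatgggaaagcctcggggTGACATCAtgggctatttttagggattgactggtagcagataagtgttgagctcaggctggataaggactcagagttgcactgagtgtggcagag
Batf3: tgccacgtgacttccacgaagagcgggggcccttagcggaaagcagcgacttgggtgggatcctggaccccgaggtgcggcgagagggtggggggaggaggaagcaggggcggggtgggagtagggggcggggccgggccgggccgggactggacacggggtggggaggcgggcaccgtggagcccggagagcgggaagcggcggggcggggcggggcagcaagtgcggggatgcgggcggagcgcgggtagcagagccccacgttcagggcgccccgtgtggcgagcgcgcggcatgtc
Both strands were searched for 5 motifs. The CArG box of Egr2 lay at positions -72 to -63 from its start, counting the start as +1, and 1.64% of the 32544 promoters of the same length held a CArG box. TGACATCA lay at -45 to -38 of Jun, and 3.37% of promoters held it. GCGNGGGCG, the letters bound by EGR proteins, were matched in Fosb at -50 to -42 and in Fosl2 at -79 to -71, and 5.60% of promoters held them. The RefSeq start of Fosl2 lay 671 bases from the GENCODE start of Fosl2-201, its most-read transcript. The positions of the Fosl2 match thus hold for the RefSeq start only. The Batf3 window held no match to any of the motifs, which also included the AP-1 site TGANTCA, held by 7.79% of promoters, and the CRE TGACGTCA, held by 1.80%. Its RefSeq start lay 89 bases from the GENCODE start of Batf3-201, the most-read transcript of the gene. The table gave Egr2 5 starts, and the one shown is that of Egr2-201.

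Per length, Jund had the highest level of the 10 genes and Fosb the lowest in both groups. JunD is the JUN protein held at a steady level in many resting cells. Summed over each gene's transcripts, Jund stood at 41.9 ± 4.43 TPM (transcript abundance scaled for length and depth) in palmitate libraries and 49.8 ± 4.76 TPM in control libraries (SD, n = 3 each). Egr2 followed at 31.0 ± 3.09 TPM with palmitate and 33.8 ± 2.53 TPM in controls, and Batf3 at 19.3 ± 6.18 TPM with palmitate and 32.6 ± 8.28 TPM in controls. Egr2 and Batf3 were level in controls within their spread. Of the Egr2 level, the 427-base transcript Egr2-204 gave 4.86, 13.1 and 10.5 TPM in control libraries 1 to 3. It gave 0, 4.22 and 0 TPM in palmitate libraries 1 to 3. The main transcript Egr2-201 had 31.9, 25.0 and 26.4 TPM in palmitate libraries 1 to 3. In control libraries 1 to 3 it had 25.4, 19.6 and 21.9 TPM. Junb had 15.2 ± 2.15 TPM with palmitate and 15.8 ± 2.01 TPM in controls, and Jun 15.4 ± 4.03 TPM with palmitate and 10.4 ± 2.18 TPM in controls, so these neighbours did not part beyond their spread with palmitate. Fosl2, Egr1, Egr3 and Fos filled the next places in both groups, with group means between 5.08 and 9.38 TPM. Fosl2 had 9.38 ± 1.28 TPM with palmitate and 9.14 ± 1.84 TPM in controls, and Egr1 8.31 ± 0.208 TPM with palmitate and 7.11 ± 1.34 TPM in controls. Egr3 had 8.05 ± 3.57 TPM with palmitate and 6.44 ± 0.808 TPM in controls, and these 3 did not part from each other beyond their spread. Fos had 6.73 ± 0.754 TPM with palmitate and 5.08 ± 0.933 TPM in controls. Fosb had 1.56 ± 0.343 TPM with palmitate and 0.974 ± 0.239 TPM in controls, below every other member in all 6 libraries.

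**Figure D1:**
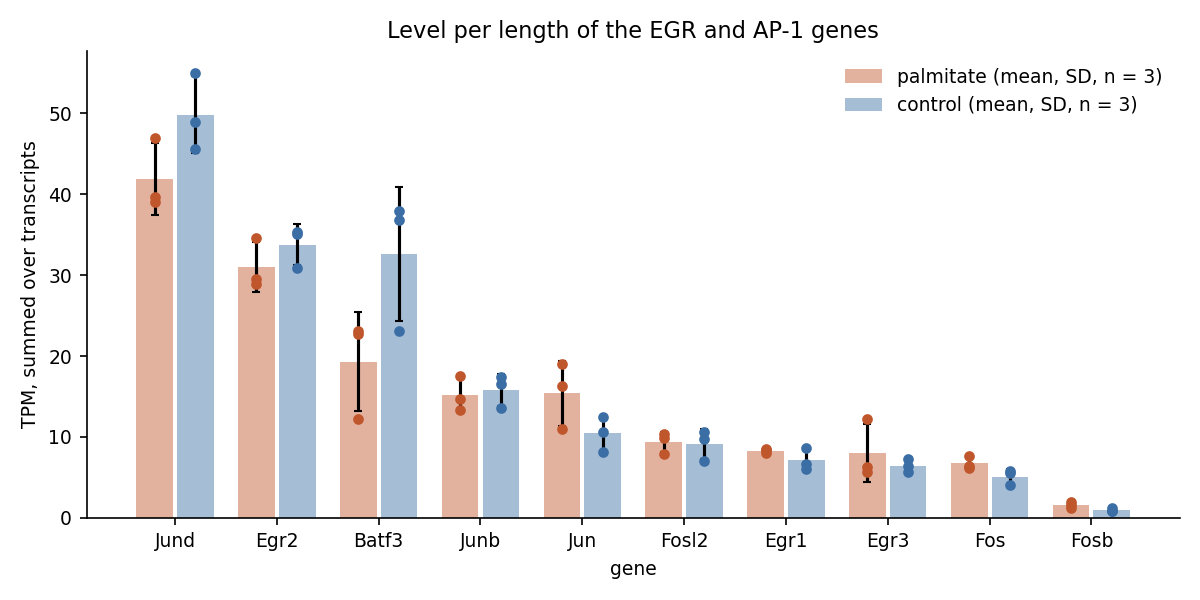
Level of each of the 10 genes in TPM, summed over transcripts, as bars of the group mean with SD and 1 point per library for palmitate and control. Jund, with group means of 41.9 TPM with palmitate and 49.8 TPM in controls, is at the high end, and Fosb, with 1.56 TPM with palmitate and 0.974 TPM in controls, at the low end.

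Jund, Egr2 and Batf3 kept their places when levels were taken from the matrix as CPM per kilobase, but Egr3 took rank 10 there in place of rank 8. The matrix held all reads of Egr1, Egr2, Fos, Jun, Jund and Batf3, 99.9% of those of Junb and 96.1% of those of Fosl2. It held 0.917% of the reads of Egr3, 27 of 2944 over the 6 libraries, and 47.6% of those of Fosb. For Egr3 the matrix value equalled the reads of Egr3-201 alone. The retained-intron transcript Egr3-202 took 81.4%, 78.5% and 75.8% of the gene's reads in palmitate libraries 1 to 3 and 75.0%, 79.3% and 74.4% in control libraries 1 to 3, and the protein-coding Egr3-204 took 17.1% to 25.3% in the 6 libraries. For Fosb the matrix value equalled the protein-coding Fosb-201, which left out the retained-intron Fosb-204 (24.4% to 40.6% of reads). In palmitate library 2, Fosb-201 was at 0 reads, and Fosb-205 and Fosb-207, both protein coding, held 71.6 and 20 reads, while both were at 0 in the other 5 libraries. The matrix count of Fosb in that library was therefore 0 although the gene had reads there. Egr3 and Fosb are given as transcript sums below, and the matrix values of Fosb beside them.

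**Figure D2:**
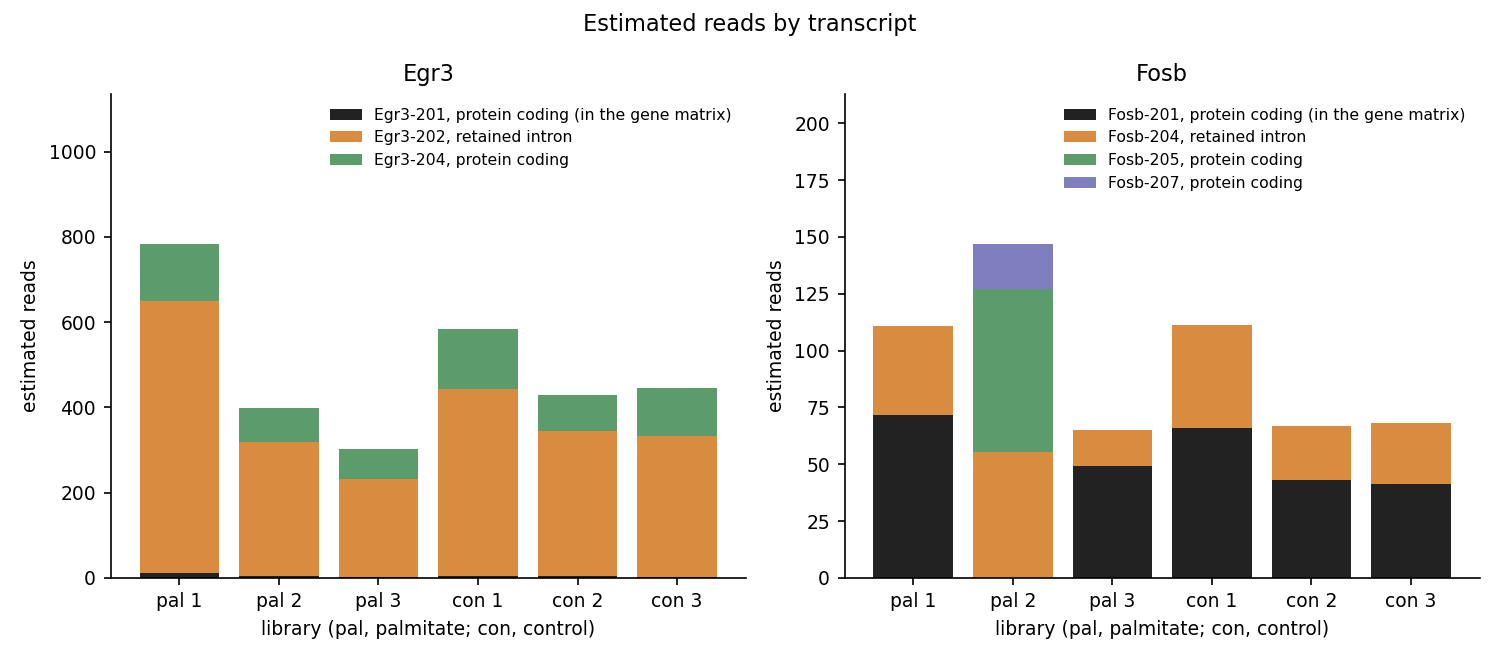
Estimated reads of each Egr3 and Fosb transcript in each library, palmitate libraries first, with the transcript that the gene matrix counted marked. Egr3-202 leads in all 6 libraries, and Fosb-201 is at 0 in palmitate library 2, where Fosb-205 has 71.6 reads.

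Of the 9 members tested in the matrix, 0 were called by edgeR's quasi-likelihood test at an adjusted p under 0.05, where 22.9% of all 12068 genes tested were called. At an unadjusted p under 0.05 there were 2, Egr2 and Jun, against 37.8% of all genes. DESeq2 called 1, Jun (adjusted p = 0.0370), where it called 26.4% of all genes, and limma-voom called 0 (1 at an unadjusted p under 0.05), where it called 22.0% of all genes. With the replicate number as a block, which pairs palmitate and control libraries of the same number, 3 of 9 were called: Egr2 and Jun higher and Batf3 lower with palmitate, where 33.1% of all genes were called, 16.5% higher and 16.6% lower. The transcript sums called 0 of 10 (25.8% of 13088 genes), and with the block 4 of 10, Egr2, Fosb and Jun higher and Batf3 lower, where 38.7% of all genes were called, 18.8% higher and 19.9% lower. The median log2 fold change of the 9 members was 0.08 in the matrix without the block, which is the incomplete matrix value of Fosb, and -0.01 with the block. Over the 10 members of the transcript sums it was 0.20 without the block and 0.21 with it, beside 0.02 over all genes tested in each of these 4 fits. The share of members called was below that of all genes without the block and near it with the block.

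**Figure D3:**
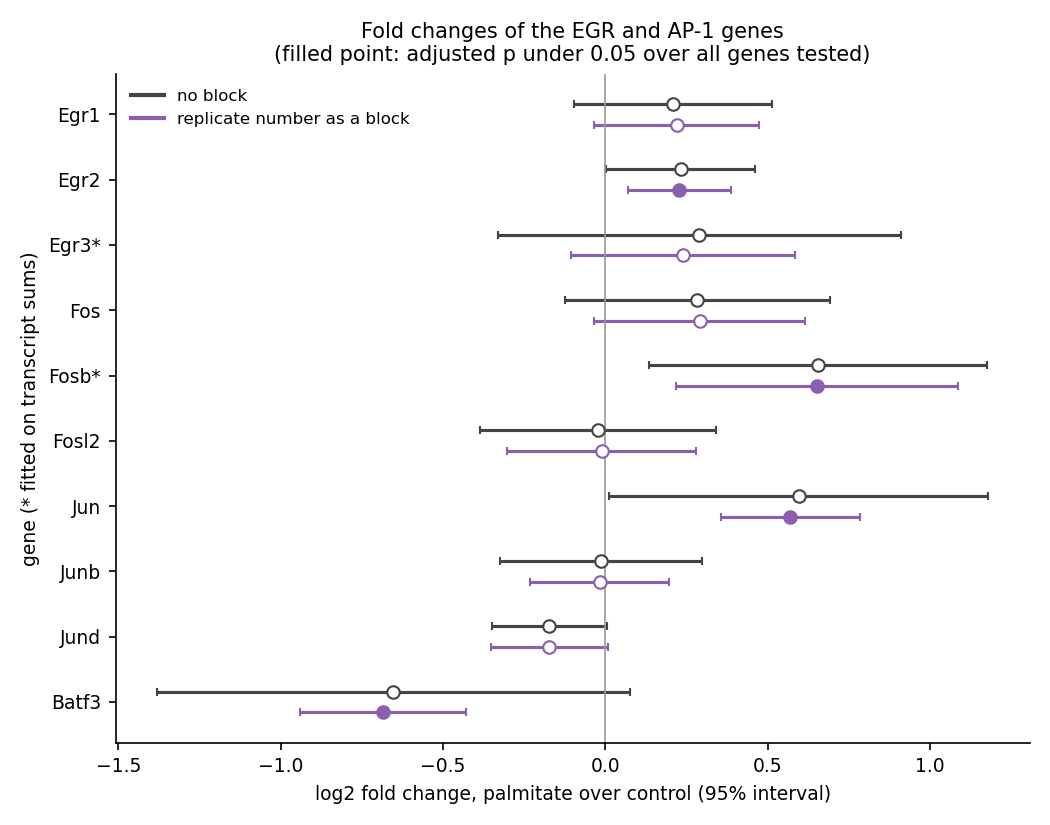
Log2 fold change, palmitate over control, of each member with its 95% interval, without and with the replicate number as a block. Egr3 and Fosb are from transcript sums, and points are filled where the adjusted p was under 0.05; Jun and Batf3 have the intervals farthest from 0 with the block.

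Egr2 was called higher with palmitate with the replicate block but not without it, and Egr1 and Egr3 were called in neither fit. Egr2 had 80.3, 63.6 and 72.1 CPM in palmitate libraries 1 to 3, against 64.8, 56.8 and 62.3 CPM in control libraries 1 to 3. The groups overlapped, since palmitate library 2 lay below control library 1, but each palmitate library was above the control library of the same number, by 0.31, 0.16 and 0.21 on the log2 scale. Its log2 fold change was 0.23 ± 0.10 (SE; 95% interval 0.00 to 0.46; adjusted p = 0.131), and 0.23 ± 0.07 (0.07 to 0.39; adjusted p = 0.0354) with the replicate block. The call with the block was lost when any 1 pair was left out (adjusted p = 0.102, 0.0540 and 0.209 without pairs 1, 2 and 3). With no block, the log2 fold change was 0.14 without palmitate library 1. With transcript sums and length offsets, which scale reads by the effective length of the transcripts in use, Egr2 turned to -0.18 ± 0.10 (adjusted p = 0.217). The effective length of its transcripts was averaged with their TPM, not their reads, as weights. It was 2704, 2399 and 2691 bases in palmitate libraries 1 to 3 and 2337, 1771 and 1923 bases in control libraries 1 to 3. Egr2-204, a transcript of 427 bases, had reads in all 3 control libraries and in 1 palmitate library. Egr2-201 held 94.1 ± 3.06% of reads with palmitate and 89.7 ± 6.04% in controls.

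Egr1, the EGR gene most widely used as an activation marker, had 20.9, 20.7 and 20.3 CPM in palmitate libraries 1 to 3 and 16.4, 21.7 and 15.5 CPM in control libraries 1 to 3. The palmitate libraries were close together, and control library 2 lay above all of them. Palmitate over control, the log2 fold change was 0.21 ± 0.13 (95% interval -0.10 to 0.51; adjusted p = 0.282, and 0.159 with the block). Without control library 3 it was 0.11 (adjusted p = 0.636), and without control library 2 it was 0.37 (adjusted p = 0.0584). Leaving out pair 2 gave an adjusted p of 0.0480 with the block, against 0.437 and 0.558 without pairs 1 and 3. Egr1-201 and Egr1-202 held 21.0 ± 10.4% and 79.0 ± 10.4% of the reads with palmitate, and 22.9 ± 4.85% and 77.1 ± 4.85% in controls.

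Egr3, known with EGR2 for limiting T cell responses, had 28.6, 14.2 and 16.5 CPM in palmitate libraries 1 to 3 and 18.3, 15.8 and 14.5 CPM in control libraries 1 to 3, as transcript sums. Palmitate library 1 stood apart from the other 5, which overlapped. On the log2 scale the fold change was 0.29 ± 0.26 (95% interval -0.33 to 0.91; adjusted p = 0.449, and 0.236 with the block). Since most of these reads were given to the retained-intron transcript, they describe RNA of the locus and not mRNA alone.

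**Figure D4:**
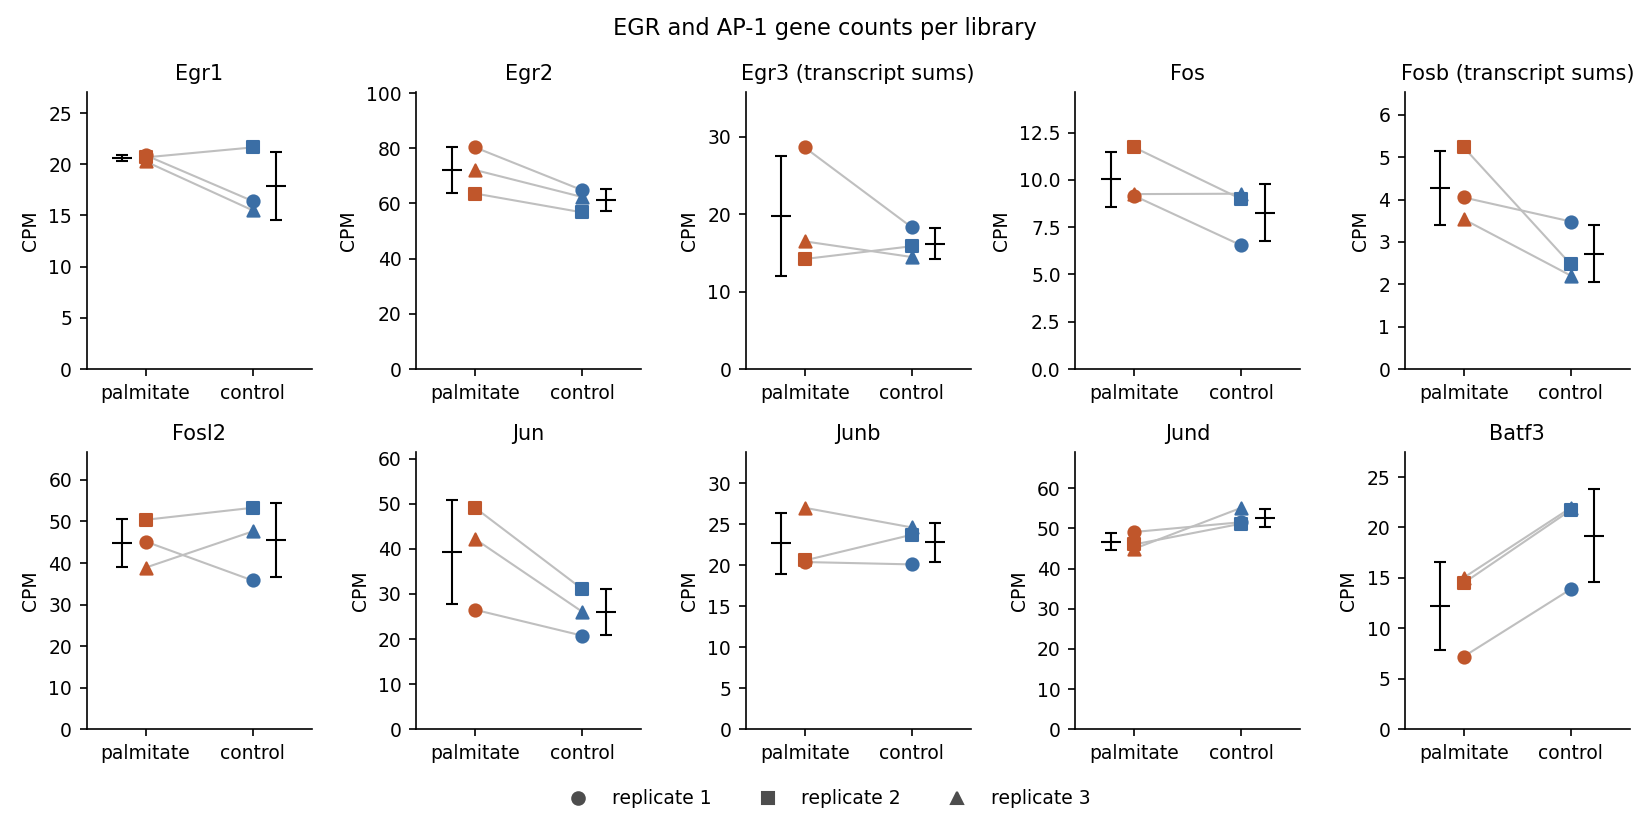
CPM of each of the 10 genes in the 3 palmitate and 3 control libraries, with library numbers, where Egr3 and Fosb are transcript sums. Jun is at 26.5 to 49.1 CPM with palmitate and 20.8 to 31.1 CPM in controls, and Batf3 at 7.22 to 15.0 CPM with palmitate and 13.9 to 22.0 CPM in controls.

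Of the FOS genes, Fosb was called higher with palmitate in the transcript sums with the block, and Fos and Fosl2 were not called. That fit was chosen after the data were seen, and it was not run without a pair. Fosb encodes a FOS protein whose truncated splice form is long-lived. As transcript sums it had 4.05, 5.23 and 3.53 CPM in palmitate libraries 1 to 3 and 3.48, 2.47 and 2.20 CPM in control libraries 1 to 3. In CPM every palmitate library was above every control library, as for 21.8% of the 13088 genes of the transcript sums, but in TPM palmitate library 3 lay below control library 1. The log2 fold change was 0.66 ± 0.23 (95% interval 0.13 to 1.18; adjusted p = 0.0646) and 0.65 ± 0.20 (0.22 to 1.09; adjusted p = 0.0235) with the block. In the matrix, where palmitate library 2 was at 0, Fosb had 2.90, 0 and 2.92 CPM with palmitate and 2.27, 1.72 and 1.44 CPM in controls, and the log2 fold change was 0.08 ± 1.08 (adjusted p = 0.967).

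Fos, the archetype of the immediate early genes, had 9.16, 11.7 and 9.25 CPM in palmitate libraries 1 to 3 and 6.54, 8.98 and 9.27 CPM in control libraries 1 to 3. The groups overlapped only through control library 3, which lay between the palmitate libraries, and in TPM every palmitate library was above every control library, as for 22.3% of 13088 genes. Its log2 fold change was 0.28 ± 0.18 (95% interval -0.13 to 0.69; adjusted p = 0.278), with 0.14 without control library 1 and 0.15 without palmitate library 2. Fosl2, the gene of FRA2, had 45.2, 50.4 and 38.9 CPM with palmitate and 35.8, 53.3 and 47.6 CPM in controls, with the palmitate libraries within the range of the controls. Palmitate over control, the log2 fold change was -0.02 ± 0.16 (95% interval -0.39 to 0.34; adjusted p = 0.934). Fos-201 held 93.8 ± 0.395% of the reads of Fos with palmitate and 97.8 ± 1.97% in controls, and Fosl2-201 held 95.3 ± 0.239% with palmitate and 96.8 ± 0.791% in controls. Over the 14 transcripts with at least 10% of their gene's reads in any library, a two-sided exact permutation test gave p = 0.1 for both of these, the smallest value that 3 against 3 allows, and 0.7 after adjustment.

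Among the JUN genes, Jun was called higher with palmitate by edgeR with the block but not without it, and by DESeq2 without the block. Junb and Jund were called in none of these. Jun encodes the main partner of FOS proteins in AP-1. It had 26.5, 49.1 and 42.2 CPM in palmitate libraries 1 to 3 and 20.8, 31.1 and 26.1 CPM in control libraries 1 to 3. Palmitate library 1 lay among the controls and the other 2 above them, and each palmitate library was above the control library of its number, by 0.35, 0.66 and 0.69 on the log2 scale. On the log2 scale the fold change was 0.60 ± 0.25 (95% interval 0.01 to 1.18; adjusted p = 0.127) and 0.57 ± 0.09 (0.36 to 0.78; adjusted p = 0.00369) with the block. With the block the call held without each pair in turn (adjusted p = 0.00860, 0.0226 and 0.0368). With no block, leaving out 1 library moved the log2 fold change between 0.39 without palmitate library 2 (adjusted p = 0.306) and 0.81 without palmitate library 1 (adjusted p = 0.0309). The last was the 1 call among the 6 cases, where 11.7% of all genes were called and 5.49% were called higher. Jun shares 232 exon bases with the antisense gene Junos, which had no transcript matched in the tables. The strand setting is not stated, so reads of such pairs cannot be told apart.

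Junb, a JUN protein that counters JUN at some targets, had 20.4, 20.6 and 27.0 CPM with palmitate and 20.1, 23.7 and 24.6 CPM in controls. The groups overlapped throughout, and the log2 fold change was -0.01 ± 0.14 (95% interval -0.32 to 0.30; adjusted p = 0.953). Its gene shares 173 exon bases on the opposite strand with Prdx2, which had 17631 reads over the 6 libraries. Jund had 49.1, 46.0 and 44.9 CPM with palmitate and 51.5, 51.2 and 55.1 CPM in controls. It was the 1 member of the matrix whose groups did not overlap, and 42.9% of all genes tested had groups that did not, 21.6% with palmitate above and 21.2% with palmitate below. In TPM the groups of Jund overlapped, with palmitate library 1 (47.0 TPM) above control library 1 (45.6 TPM). The log2 fold change was -0.17 ± 0.08 (95% interval -0.35 to 0.00; adjusted p = 0.141), and it was not called. Jund shares 877 exon bases with the antisense gene Gm11175.

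Batf3 was called lower with palmitate with the block but not without it. BATF3 is a BATF protein that pairs with JUN and IRF factors. It had 7.22, 14.5 and 15.0 CPM in palmitate libraries 1 to 3 and 13.9, 21.7 and 22.0 CPM in control libraries 1 to 3. The groups overlapped, since palmitate libraries 2 and 3 lay above control library 1, but each palmitate library was below the control library of its number, with log2 differences of -0.94, -0.58 and -0.55. Its log2 fold change was -0.65 ± 0.31 (95% interval -1.38 to 0.08; adjusted p = 0.168) and -0.68 ± 0.11 (-0.94 to -0.43; adjusted p = 0.00357) with the block. Without palmitate library 1 and with no block it was -0.38 (adjusted p = 0.254). The call with the block held without each pair (adjusted p = 0.0146, 0.0120 and 0.0236). Its main transcript Batf3-201 held 77.3 ± 4.01% of its reads with palmitate and 77.9 ± 1.96% in controls. Among markers of type 1 dendritic cells, which use BATF3, 0 of 5 tested were called, their summed level was 13.1 to 21.2 CPM in palmitate libraries and 13.2 to 18.5 CPM in control libraries, and Clec9a had 1 count in all 6 libraries together.

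Of the 9 tested bZIP partners of AP-1, 0 rose and 3 fell, with a median log2 fold change of -0.12 beside 0.02 over all genes tested. Among all genes, 11.1% rose and 11.7% fell. Batf, which pairs with JUN and IRF4 in T cells, fell by 0.46 (25.0 ± 4.28 CPM with palmitate and 34.5 ± 4.07 CPM in controls; adjusted p = 0.0491). Atf7, of the ATF2 group, fell by 0.46 (adjusted p = 0.0465), and Mafg, a small MAF protein, fell by 0.27 (adjusted p = 0.0481). All 3 were near the threshold, and the call survived leaving out 1 library in 1, 1 and 0 of 6 cases. Maff stood at 0.77 on the log2 scale (adjusted p = 0.363, on 84.5% of its reads). The NAB proteins hold back EGR factors, and neither was called: Nab1 stood at -0.19 on the log2 scale (adjusted p = 0.104) and Nab2 at 0.23 (adjusted p = 0.346).

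Of 20 other immediate early genes, 5 rose and 0 fell, with a median log2 fold change of 0.23; of all genes tested, 11.1% rose and 11.7% fell. Those that rose were Btg2 and Btg1, which hold back cell division, the RNA-decay factors Zfp36l1 and Zfp36, and the MAP kinase phosphatase Dusp1 (0.81; adjusted p = 0.0223; 50.3% of its reads). Btg2 had 87.5 ± 8.02 CPM with palmitate and 51.1 ± 1.27 CPM in controls, a log2 fold change of 0.78 ± 0.08 (adjusted p = 0.00293). Btg1 rose by 0.50 (adjusted p = 0.00627), Zfp36l1 by 0.65 (adjusted p = 0.00787) and Zfp36 by 0.55 (adjusted p = 0.0140), the last counted on 74.3% of its reads. The calls of Btg2, Btg1 and Zfp36l1 held in all 6 cases of leaving out 1 library, that of Zfp36 in 4 and that of Dusp1 in 3. With the block 6 rose, the same 5 and Nr4a1 (adjusted p = 0.0200, on 83.1% of its reads), and 3 fell, Ier3, Nr4a3 and Sik1. Ier3 stood at -0.83 (adjusted p = 0.00133), Nr4a3 at -0.50 (adjusted p = 0.0232) and Sik1 at -0.32 (adjusted p = 0.0125). In that fit 16.5% of all genes rose and 16.6% fell.

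In the ERK and SRF route between the receptor and these genes 2 of 20 rose and 2 fell, where 11.1% of all genes rose and 11.7% fell, with a median log2 fold change of 0.04. Rasgrp1, which activates RAS in T cells, had 165 ± 15.4 CPM with palmitate and 96.3 ± 8.19 CPM in controls (log2 fold change 0.78 ± 0.09; adjusted p = 0.00312). Elk4, a partner of SRF, rose by 0.49 (adjusted p = 0.0180), while Map2k1, the kinase MEK1, fell by 0.42 (adjusted p = 0.0382) and Nras by 0.24 (adjusted p = 0.0447). In the JNK and p38 route 1 of 14 rose, Map3k1 (0.49; adjusted p = 0.0197), and 0 fell. On leaving out 1 library the call of Rasgrp1 held in 6 of 6 cases, that of Map3k1 in 4, that of Elk4 in 3 and those of Map2k1 and Nras in 1 each. With the block, 5 of 20 rose and 2 fell in the first route, and 1 of 14 rose and 1 fell in the second, where 16.5% of all genes rose and 16.6% fell.

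Of 14 inhibitors of RAS and MAP kinase signalling, 5 were called, all higher with palmitate. Called or not, 8 of the 14 had a positive log2 fold change and 6 a negative one. Dusp10, a phosphatase of JNK and p38, had 38.7 ± 7.75 CPM with palmitate and 18.6 ± 2.36 CPM in controls (log2 fold change 1.06 ± 0.16; adjusted p = 0.00615). Spry1, an antagonist of RAS signalling, rose by 0.80 (adjusted p = 0.00524), Rasa3, a RAS GTPase activator, by 0.76 (adjusted p = 0.00748) and Dusp2, an ERK phosphatase, by 0.55 (adjusted p = 0.00691). The fifth was Spry2 (0.46; adjusted p = 0.0367). Leaving out 1 library kept the first 4 calls in all 6 cases and that of Spry2 in 0. The median of the 14 was 0.11, and the 5 stood beside 11.1% of all genes. Of 12 NFAT and IRF partners, 0 rose and 1 fell, Ppp3r1, a calcineurin subunit (-0.40; adjusted p = 0.0332; kept in 1 of 6 cases of leaving out 1 library), and Nfatc1 stood at 0.35 on the log2 scale (adjusted p = 0.0520). The median log2 fold change of these 12 was -0.03, and 11.1% of all genes rose and 11.7% fell in that fit. With the block 1 rose, Nfatc1 (adjusted p = 0.0174), and 1 fell, Ppp3r1, where 16.5% of all genes rose and 16.6% fell.

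Of 15 tested T cell genes linked to EGR2 and EGR3, 2 rose and 1 fell, with a median log2 fold change of -0.02. Over all genes tested, 11.1% rose and 11.7% fell. Cdkn1b, a brake on the cell cycle, had 58.5 ± 12.4 CPM with palmitate and 35.4 ± 2.38 CPM in controls (log2 fold change 0.72 ± 0.14; adjusted p = 0.0130), and Socs1, which limits cytokine signalling, rose by 0.52 (adjusted p = 0.0220; 86.5% of its reads). Crtam, a surface molecule of activated CD8+ T cells, fell by 0.54 (adjusted p = 0.0113). Dgka, which lowers diacylglycerol, stood at 0.62 on the log2 scale (adjusted p = 0.0633, on 83.3% of its reads). The call of Crtam held in 6, that of Cdkn1b in 5 and that of Socs1 in 2 of 6 cases of leaving out 1 library. With the block 5 rose and 3 fell, where 16.5% of all genes rose and 16.6% fell.

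Of 15 cytokine and activation genes linked to AP-1 and NFAT, 1 rose and 2 fell, with a median log2 fold change of -0.23. Among all genes tested, 11.1% rose and 11.7% fell. Gzmb, the protease granzyme B, had 4082 ± 483 CPM with palmitate and 6769 ± 1104 CPM in controls (log2 fold change -0.73 ± 0.14; adjusted p = 0.0113), and Tnfrsf9, the receptor 4-1BB, fell by 0.49 (adjusted p = 0.00987). Cd69, an early activation marker, rose by 0.53 (adjusted p = 0.0490; 74.4% of its reads), and kept the call in 1 of 6 cases of leaving out 1 library, while Gzmb and Tnfrsf9 kept theirs in 5. Ctla4 stood at -1.17 on the log2 scale (adjusted p = 0.0889). With the block 1 rose, Cd69, and 6 fell, among them Gzmb and Tnfrsf9, where 16.5% of all genes rose and 16.6% fell. Of the others that fell, Ifng stood at -1.03 (adjusted p = 0.00228) and Csf2 at -0.77 (adjusted p = 0.00138). Il3 stood at -0.67 (adjusted p = 0.0166) and Ccl3 at -0.23 (adjusted p = 0.0312).

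Heat shock genes, which along with immediate early genes rise when tissue is dissociated, had 2 of 9 higher and 3 lower, with a median log2 fold change of -0.09. Over all genes tested, 11.1% rose and 11.7% fell. Hspa1a rose by 1.27 (adjusted p = 0.0403), at 1.36 ± 0.321 CPM with palmitate and 0.555 ± 0.222 CPM in controls, and Hspa1b by 0.91 (adjusted p = 0.0465), and these near-identical copies share reads that cannot be parted with certainty. Hsph1 fell by 0.58 (adjusted p = 0.00532; 31.4% of its reads), Hspe1 by 0.50 (adjusted p = 0.0140) and Hsp90aa1 by 0.44 (adjusted p = 0.0271). Leaving out 1 library kept the call of Hsph1 in 6, of Hspe1 in 5, of Hsp90aa1 in 2 and of Hspa1a and Hspa1b in 0 of 6 cases. Whether handling of the cells differed between the groups was not tested.

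**Figure D5:**
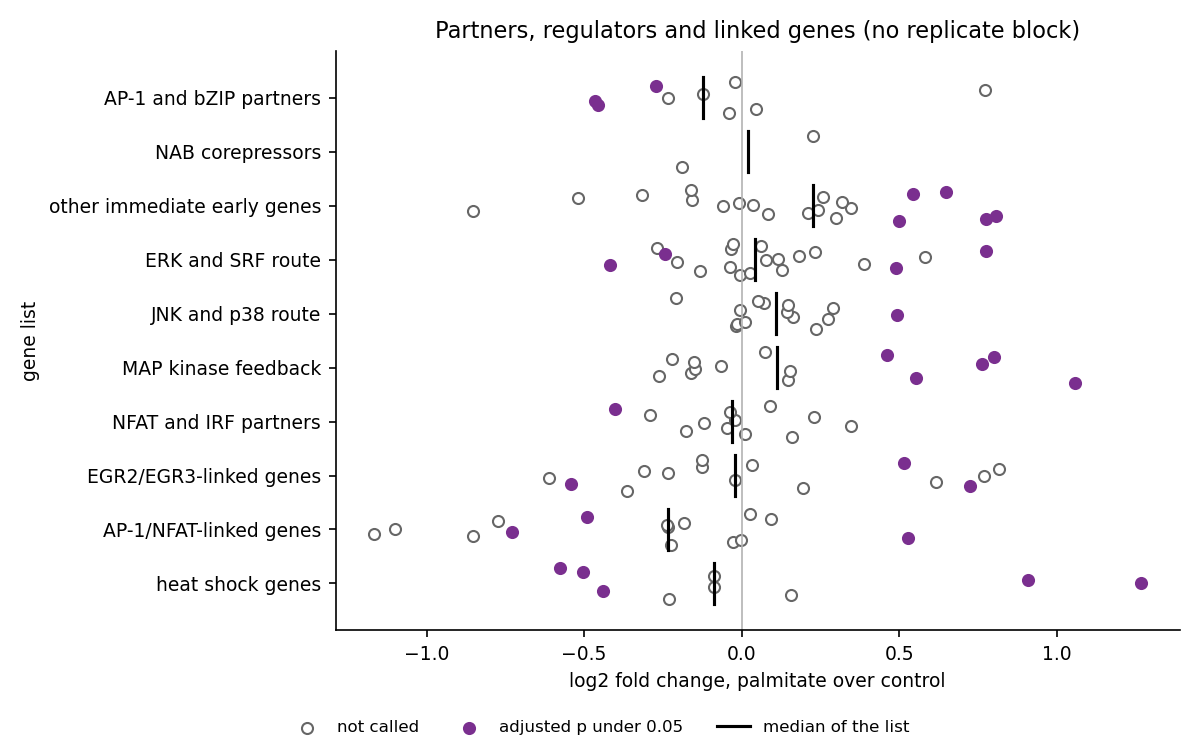
Log2 fold change, palmitate over control, of each tested gene in the 10 lists of partners, regulators and linked genes, 1 row per list, with the list median as a bar and filled points for an adjusted p under 0.05. The called inhibitors of RAS and MAP kinase signalling and the called other immediate early genes lie right of 0, and the called AP-1 partners left of it.

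Over the 6 libraries, the members did not vary as one group. Of the 28 pairs among the 8 members with enough reads, Pearson's r of log2 CPM ran from -0.88 for Egr2 with Batf3 to 0.83 for Fos with Jun, and Jun with Jund had -0.79. The libraries share their groups and replicate numbers, so these values describe 6 libraries only. The non-member gene most like Jun of the 8931 genes searched was Mapre2 (r = 0.99), followed by Hilpda (0.98). For Batf3 they were Usp18 and Rabggtb (both 1.00), for Egr2 Depdc1b and Trbv1 (both 0.99) and for Egr1 Acp2 and Maml2 (both 0.98). Fos was most like Rdh14 and Srgap3 (both 0.99), Fosl2 like Tuba1a (0.98) and Casp9 (0.97), Junb like Tfap4 and Cdkn2aip (both 0.99), and Jund like Sptlc2 and Mgme1 (both 0.99). Spearman's rho over the same 6 libraries was 0.83 to 1.00 for 15 of these 16 genes, and 0.49 for Fos with Srgap3, a value that 1195 of the 8931 genes reached. The rho of each of the other 15 was reached by between 8 genes (Junb with Tfap4) and 468 genes (Egr2 with Trbv1).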

How the data were processed

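RNA-seq of mouse CD8+ T cells was deposited as a gene matrix for 3 palmitate and 3 control libraries and as 1 Salmon table per library. Per the labels' protocols, RNA was taken with RNeasy Mini kits and libraries with the SMARTER mRNA-Seq kit. Per the submitters' processing notes, Salmon 1.10.0 and Trim Galore 0.6.10 were among the tools, along with DESeq 1.42.0 and build GRCm39. The matrix the authors deposited holds whole-number estimated counts per gene. Per the file headers, the transcript tables hold expected counts, which need not be whole, TPM and effective lengths, and the authors deposited them unpooled. The sources used here name neither the transcript-to-gene table nor the strand setting.

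The 10 members and all lists were chosen with earlier results of these data known. Symbols came from GENCODE M21 and a gene name table (29087 of 29370 genes and 114857 of 116224 transcripts matched). No column was left unused (0). Matrix counts were tested with edgeR 4.0.16 in R 4.3.3 (TMM scaling, filterByExpr, robust quasi-likelihood fit, Benjamini-Hochberg adjustment at 0.05), with DESeq2 1.42.0 and limma 3.58.1 (voom) as alternatives, and intervals are 95%. The edgeR script was checked on simulated counts with known fold changes. Transcript expected counts were summed per gene and rounded. CPM uses TMM-scaled library sizes. All members are named, with up to 4 genes per list of smallest adjusted p and the 2 genes most like each member. Transcripts with at least 10% of reads in any library are named too. Dusp1, Spry2, Hspa1b, Nr4a1, Ier3, Nr4a3, Sik1, Ifng, Csf2, Il3 and Ccl3 were named in addition, after their values were seen.

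Same-numbered libraries of the 2 groups deviated together (r = 0.226, 0.13 and 0.152 over genes, against -0.185 to 0.0608 for other numbers), so the numbers were treated as pairs in the block fits, on the data alone. Group means were subtracted first, which ties the values of each library to one another. The values for other numbers are therefore no independent baseline, and whether the pairing is real was not tested. The labels do not say whether libraries are separate animals or cultures; the p-values then cover only how these libraries vary, possibly for technical reasons. Replicates differed by more than sampling noise (chi-square per gene 11.5 to 37.6).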

Additional observations from a re-analysis of the deposited data

Results flagged for a closer look

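In palmitate library 2, Fosb-205 had 71.57 estimated reads and Fosb-207 had 20, while both transcripts were at 0 in all 3 control libraries and in the other palmitate libraries. Neither transcript enters the gene matrix, which held Fosb-201 alone. These values were flagged as a signal outside the matrix, and why these reads were assigned to other transcripts in that library was not tested.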

How the results depend on the processing

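Egr1, Fos, Jun, Jund and Batf3 kept their direction under every alternative run, while Egr2 turned to -0.18 with transcript sums and length offsets. Fosl2 and Junb, whose fold changes were near 0, turned to 0.0402 and 0.0453 with upper-quartile scaling and to 0.0060 and 0.0118 with a minimum mean of 5 CPM, and Fosl2 to 0.0038 with limma-voom. Leaving out 1 library moved Fosl2 between -0.172 and 0.102 and Junb between -0.157 and 0.0509. With the replicate block and without pair 2, Fosl2 was at 0.0222 and Junb at 0.0744, and without pair 3 Fosl2 was at 0.124. The matrix value of Fosb, at 0 in palmitate library 2, turned to -1.91 with limma-voom and -0.34 with the replicate block, to -0.90 and -1.29 with the block and without pairs 1 and 3, and ran from -0.394 to 0.674 when 1 library was left out.

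Members called higher numbered 0, but 1 with DESeq2, 2 with the replicate block and 3 with transcript sums and the block. In these fits 12.0%, 16.5% and 18.8% of all genes were called higher. They numbered 0 to 1 when 1 library was left out, and 1 to 2 with the block when 1 pair was. Members called lower numbered 0, and 1 in each of the block fits. With the block and without pairs 1, 2 and 3, the genes called in either direction were 3357 of 12134, 2735 of 12176 and 1496 of 12185. The 2759 genes called in all became 5065 with transcript sums and the block, 1496 with the block and without pair 3, and 690 to 3433 on leaving out 1 library. Genes of the 10 lists called higher (18) became 34 with transcript sums and the block, and 8 to 18 on leaving out 1 library. Those called lower (12) became 7 with upper-quartile scaling, 20 with DESeq2, 23 with the replicate block, 29 with transcript sums and the block, 27 with the block and without pair 1, and 2 to 26 on leaving out 1 library. The cause was not tested. The fits on transcript sums with the block and on the block without a pair were chosen after seeing the data. Fosb had 65 to 147 reads per library as transcript sums, and its SE was 0.23 there and 1.08 in the matrix.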
